A study of Homo sapiens with 6 samples.

Results

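Metallothionein transcripts and genes of the zinc response were examined in Hep-G2, a widely used liver tumour cell line of human origin, after depletion of CLGN, which encodes the endoplasmic reticulum chaperone calmegin. The group comprised 10 genes chosen by name out of 58735 in the expression table, and each matched a single row. It held 8 metallothioneins, MT2A, MT1E, MT1F, MT1G, MT1M, MT1X, MT1B and MT1H, the transcription factor MTF1 and the zinc exporter SLC30A1. The 10 genes were selected with the difference between sh-CLGN and sh-NC in these libraries already known, so their differences are given as a description, with no p-value. The data were 3 libraries of sh-CLGN cells, which carried a lentiviral short hairpin RNA against CLGN, and 3 libraries of sh-NC cells, which carried a control hairpin. Both groups were Hep-G2 cells selected with puromycin, the labels and methods name no added metal, and each group rested on a single hairpin, so the hairpin and the culture cannot be told apart from the loss of CLGN. The labels do not say whether the 3 libraries of a group came from separate cultures, so the spread given here may be technical. Expression was deposited as FPKM, that is, fragments scaled by gene length and by library size.

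Metallothioneins are small cytosolic proteins rich in cysteine that bind zinc and copper and also take up cadmium. When free zinc rises, MTF1 enters the nucleus and binds metal response elements (MREs), short promoter sequences, which turns on metallothionein genes and SLC30A1. SLC30A1, also called ZnT1, moves zinc out of the cell, whereas transporters of the ZIP family bring zinc into the cytosol. In liver, metallothioneins hold an exchangeable store of zinc and are also induced by glucocorticoids, inflammation and oxidative stress.

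The 8 metallothionein genes lay in a cluster on chromosome 16 (chr16:56608199-56684196, GRCh38) that spanned 76.0 kb. From the lowest coordinate upward, the order was MT2A (chr16:56608199-56609497), MT1E (chr16:56625475-56627112), MT1M (chr16:56632233-56633986), MT1B (chr16:56651899-56653204), MT1F (chr16:56657694-56660698), MT1G (chr16:56666731-56668065), MT1H (chr16:56669814-56671129) and MT1X (chr16:56682424-56684196). MT1G was on the minus strand and the other 7 were on the plus strand. MTF1 (chr1:37809567-37859620, minus strand) and SLC30A1 (chr1:211571568-211578742, minus strand) lay apart on chromosome 1.

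The coding sequences are shown because their likeness bears on whether reads can be assigned to a single gene. Each of the 8 encoded 61 residues, of which 20 were cysteines, or 21 in MT1B, and any pair was between 88.7% and 95.2% identical. The first 60 coding bases of a GENCODE 29 transcript of each gene follow, 5′ to 3′, and capitals mark bases that differ from MT2A at the same position.
MT2A: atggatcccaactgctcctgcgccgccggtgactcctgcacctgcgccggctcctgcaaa
MT1E: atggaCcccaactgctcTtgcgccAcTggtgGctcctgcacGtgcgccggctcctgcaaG
MT1F: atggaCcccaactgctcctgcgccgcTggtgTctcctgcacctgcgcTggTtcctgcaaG
MT1G: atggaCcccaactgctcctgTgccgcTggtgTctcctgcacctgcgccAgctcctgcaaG
MT1M: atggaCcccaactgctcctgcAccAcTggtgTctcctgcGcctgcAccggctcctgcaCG
MT1X: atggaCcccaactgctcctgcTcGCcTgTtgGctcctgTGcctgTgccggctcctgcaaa
MT1B: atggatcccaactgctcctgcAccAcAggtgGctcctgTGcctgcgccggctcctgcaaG
MT1H: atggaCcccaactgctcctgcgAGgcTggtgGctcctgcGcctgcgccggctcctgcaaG
Between 6 and 10 of these 60 bases differed from MT2A, with the fewest in MT1F and MT1G and the most in MT1X.

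Read sharing was examined over whole exons. Stretches of 50 bases found letter for letter in the exons of another gene made up 1.22% of MT1F, 3.02% of MT2A, 7.10% of MT1E, 9.87% of MT1M, 15.8% of MT1H, 16.5% of MT1G, 18.3% of MT1X and 19.0% of MT1B. Stretches of 100 bases were shared by none of MT2A, MT1E, MT1F, MT1G and MT1M. At that length MT1B shared 5.81% and MT1X 11.3%, each with a single gene model that overlaps it on the same strand (AC026461.2 and AC026461.1), and MT1H shared 1.39% with the pseudogene-like locus MT1HL1. AC026461.1 and MT1HL1 were listed at 0 in all 6 libraries, and AC026461.2 had 1 read, in sh-NC replicate 3. SLC30A1 shared no stretch of 50 bases with any gene, and MTF1 shared 0.89%. At 50 bases, MT1B shared stretches with AC026461.2 alone and with no other metallothionein. Most of the stretches shared by MT1X at that length were those of AC026461.1. How the authors' counting treated reads that fit several genes is not given in the sources used here. The split of reads between metallothioneins, above all for MT1G and MT1H, is therefore uncertain. For MT1B and MT1X, the uncertainty lies mainly in reads that also fit the overlapping gene models.

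A sum over the whole family does not depend on how reads were split between its genes, provided that each read was counted once. Whether reads that fit several genes were dropped or counted more than once is not known. Reads on all MT1 and MT2 genes and pseudogenes came to 402, 390 and 401 RPM (reads scaled to the library total) in sh-NC replicates 1, 2 and 3. They came to 981, 934 and 828 RPM in sh-CLGN replicates 1, 2 and 3. The lowest sh-CLGN library was thus above the highest sh-NC library. The mean went from 398 ± 6.45 to 914 ± 78.8 RPM (SD, n = 3), a ratio of 2.30 ± 0.202. Scaled by the library sizes behind the deposited FPKM, which were 0.933 to 0.953 of the read totals in sh-NC and 1.07 to 1.08 of them in sh-CLGN, the ratio was 2.01. The 8 genes of the group alone gave 2.31 on read totals.

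Libraries held between 14955816 and 16244639 reads, as recovered from FPKM and gene length. CLGN itself was present in sh-CLGN at 0.378 of its control level (log2 difference -1.31, SE 0.081, limma adjusted p = 8.35e-06) and was lower in 3 of 3 sh-CLGN libraries. Mitochondrial transcripts took 3.25% to 4.02% of control reads, against 5.49% to 5.80% in sh-CLGN. All 12 hepatocyte markers were expressed, at a summed level of 8735 to 8941 FPKM in sh-NC and 8969 to 9576 FPKM in sh-CLGN, with 5 higher, 6 lower and 1 not past the adjusted p. Of 12 fibroblast and smooth muscle markers 8 were tested, and all 8 were higher in sh-CLGN. Among them COL1A1, COL3A1, LUM and TAGLN were below 1 FPKM in every sh-NC library. The test needed at least 1 FPKM in at least 3 libraries. These genes therefore entered it only through sh-CLGN and could not have been lower. PDGFRB (log2 difference 0.27) did not pass under 8 of 16 alternatives. The summed level over all 12 markers was 64.3 to 69.2 FPKM in sh-NC and 223 to 225 FPKM in sh-CLGN. DCN and THY1 of that list had at most 3 reads in any library, and ACTA2 had 1 to 5. Of 7 blood cell markers 2 were tested and were lower, CD14 (log2 difference -0.62) and LYZ (-0.19, not past the adjusted p under 9 of 16 alternatives), with HBB at 0 and CD3E and CD68 at 3 reads or fewer, and their sum was 70.0 to 77.8 FPKM in sh-NC and 61.3 to 68.6 FPKM in sh-CLGN. LYZ made up most of the blood cell sum, at 68.7 to 76.2 FPKM in sh-NC and 60.7 to 67.9 FPKM in sh-CLGN. CD14 was below 1 FPKM in every sh-CLGN library and entered the test only through sh-NC. Of 5 endothelial markers 1 was tested, with KDR at 0 and VWF and TEK at 3 reads or fewer. The endothelial sum was 3.36 to 3.67 FPKM in sh-NC and 2.38 to 2.65 FPKM in sh-CLGN. The part of these measures in the metallothionein values was not tested. In bulk RNA, more cells of a type and more RNA per cell cannot be told apart.

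Of the 10 genes, 9 were higher in every sh-CLGN library than in every sh-NC library, an outcome found in 28.7% of the 13074 genes tested, and 1, MT1F, was lower in every sh-CLGN library, which held for 41.5% of tested genes. By the limma adjusted p of at most 0.05 used for all genes, 8 of the 10 counted as higher (26.7% of all genes tested), 1 as lower (39% of all) and 1, SLC30A1, as neither, although with TPM, read totals or quantile normalization SLC30A1 counted as higher too. With an absolute log2 difference of at least 1 as well, 5 were higher (3.09% of all) and 0 lower (3.19% of all). Since the choice of the genes used this comparison, these counts only set the genes beside the background, and nothing is read from them. All 10 passed the expression filter of at least 1 FPKM in at least 3 libraries, but MT1B and MT1H did so only through sh-CLGN. The median log2 difference over the 10 genes was 1.07, beside -0.08 over all tested genes.

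**Figure D1:**
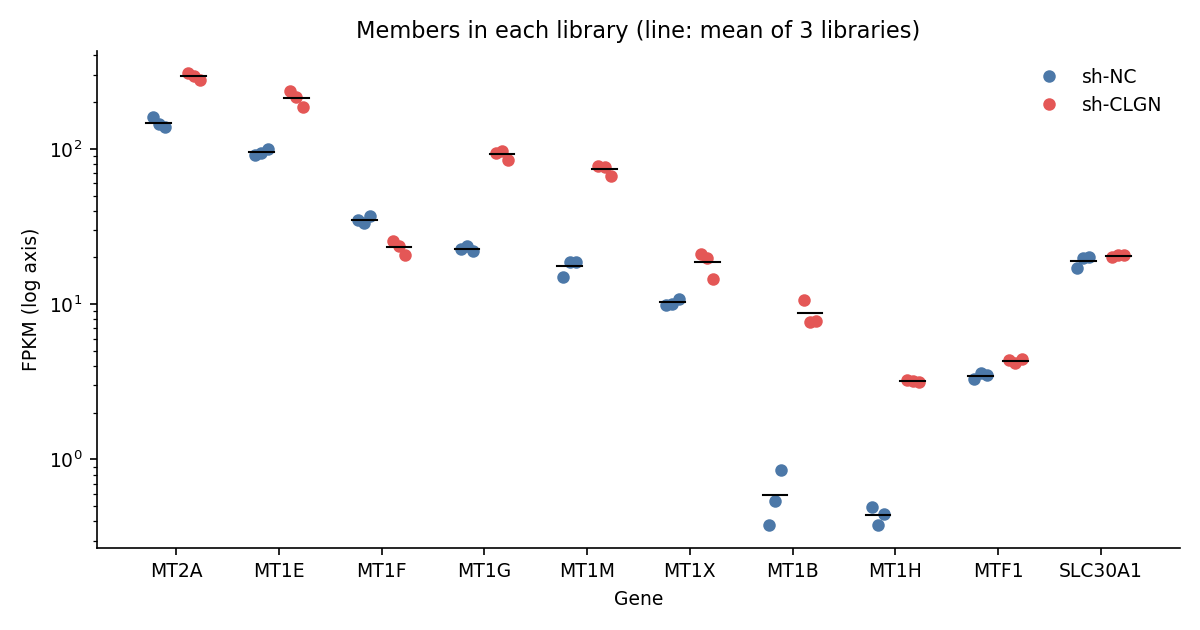
FPKM of the 10 genes (log axis) in each of the 6 libraries, with 3 points for sh-NC (blue) and 3 for sh-CLGN (red) per gene and a line at the mean of each group. Red points lie above blue points in 9 genes and below them in MT1F, and for SLC30A1 the closest points of the groups are 20.07 and 20.10 FPKM.

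MT2A encodes the main metallothionein of most human tissues and was the most abundant of the 10 genes per kilobase. In replicates 1, 2 and 3, in that order, control cells had 160, 145 and 138 FPKM and sh-CLGN cells 307, 297 and 278 FPKM. The groups did not overlap, and the lowest sh-CLGN library stood well above the highest sh-NC library. The mean went from 148 ± 11.2 to 294 ± 14.8 FPKM (SD, n = 3), a ratio of 1.99, and the log2 difference was 0.99.

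MT1E followed MT2A in abundance in both groups. It was at 92.0, 94.0 and 101 FPKM in the 3 sh-NC libraries and at 237, 215 and 188 FPKM in the 3 sh-CLGN libraries. The groups were apart, with a wider spread in sh-CLGN, where the coefficient of variation was 11.6% against 4.70%. The mean went from 95.5 ± 4.49 to 213 ± 24.8 FPKM, a ratio of 2.23.

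MT1G and MT1M, which both encode MT1 isoforms, showed the largest ratios of the 10 genes apart from the scarce MT1B and MT1H. MT1G was at 22.6, 23.7 and 22.1 FPKM in sh-NC and 94.7, 97.5 and 85.5 FPKM in sh-CLGN. Its mean went from 22.8 ± 0.831 to 92.6 ± 6.30 FPKM, a ratio of 4.06 and a log2 difference of 1.97. MT1M was at 15.1, 18.7 and 18.8 FPKM in sh-NC and 78.2, 76.4 and 66.9 FPKM in sh-CLGN. In both genes, all sh-CLGN libraries lay far above the sh-NC libraries. The mean of MT1M went from 17.5 ± 2.12 to 73.8 ± 6.04 FPKM, a ratio of 4.22 and a log2 difference of 2.02.

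MT1X, the isoform gene at the far end of the cluster, was at 9.90, 10.04 and 10.9 FPKM in sh-NC and 21.2, 19.96 and 14.6 FPKM in sh-CLGN. Replicate 3 of sh-CLGN stood closest to the controls, yet above all 3 of them. The mean went from 10.3 ± 0.517 to 18.6 ± 3.51 FPKM, a ratio of 1.81.

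MT1B and MT1H were near the lower end of detection in control cells. MT1B had 2, 3 and 5 control reads, beside 69, 48 and 48 with the CLGN hairpin, or 0.377, 0.541 and 0.850 FPKM against 10.7, 7.71 and 7.82 FPKM. Corrected for deposited library size, its reads were 14.7 times as many in sh-CLGN, with a 95% counting interval of 7.78 to 31.2. MT1H had 5, 4 and 5 control reads, beside 40, 38 and 37 with the CLGN hairpin, or 0.496, 0.379 and 0.447 FPKM against 3.26, 3.21 and 3.17 FPKM. Its ratio of reads was 7.31, with an interval of 4.18 to 13.8. Both genes were scarce in all sh-NC libraries and present in all sh-CLGN libraries. These intervals cover counting error only. The log2 differences of 2.61 for MT1B and 1.55 for MT1H are on the log2(FPKM + 1) scale and understate such changes.

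MT1F was the only member with lower values in sh-CLGN. It was at 34.7, 33.4 and 36.9 FPKM in sh-NC and at 25.4, 23.5 and 20.9 FPKM in sh-CLGN, from 636 to 1078 reads per library. The groups did not overlap. The mean went from 35.0 ± 1.78 to 23.3 ± 2.30 FPKM, a ratio of 0.666 and a log2 difference of -0.57, which lay between -0.31 and -0.59 under every other scaling, filter, pseudocount and model tried. Of the 8 metallothioneins, MT1F also had the smallest share of exonic stretches in common with other genes. Its neighbours in the cluster, MT1B and MT1G, 4.49 and 6.03 kb away, were both higher.

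**Figure D2:**
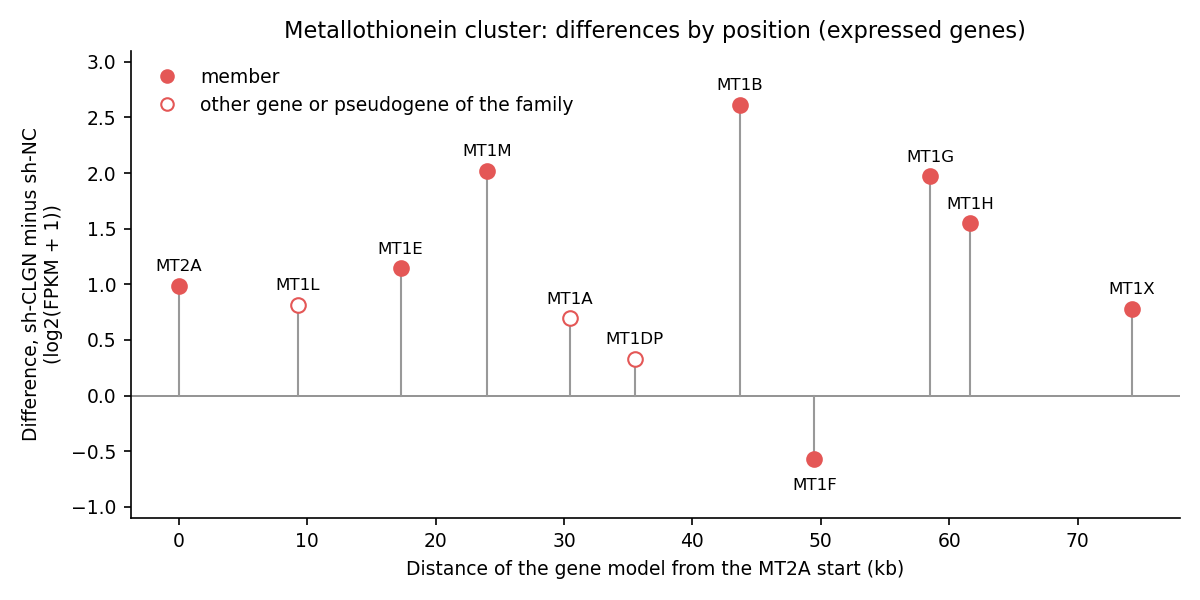
Difference between sh-CLGN and sh-NC in log2(FPKM + 1), on the vertical axis, by distance of the gene model from the start of MT2A in kb, for the metallothionein genes and pseudogenes that passed the expression filter (filled points: the 8 members). MT1F, 49.5 kb from MT2A, is the only point below 0, and MT1B, 43.7 kb from it, is the highest.

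Because 1 gene was lower and 7 were higher, the make-up of the metallothionein pool differed between the groups. The 8 genes summed to 335, 326 and 329 FPKM in the control libraries and to 777, 741 and 664 FPKM in the libraries with the CLGN hairpin. MT2A made up 42.0% to 47.8% of the control sum and 39.5% to 41.8% with the CLGN hairpin. MT1E took 27.4% to 30.6% and 28.2% to 30.5%, which overlapped. The share of MT1F was 10.2% to 11.2% in control cells and 3.14% to 3.27% in sh-CLGN cells. MT1G went the other way, with 6.73% to 7.28% in control cells and 12.2% to 13.2% in sh-CLGN cells. MT1M did so too, with 4.50% to 5.73% and 10.1% to 10.3%. The share of MT1X was 2.96% to 3.30% in control cells and 2.20% to 2.73% in sh-CLGN cells. MT1B made up at most 0.259% of the control sum and at least 1.04% of the other, and MT1H at most 0.148% and at least 0.420%.

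**Figure D3:**
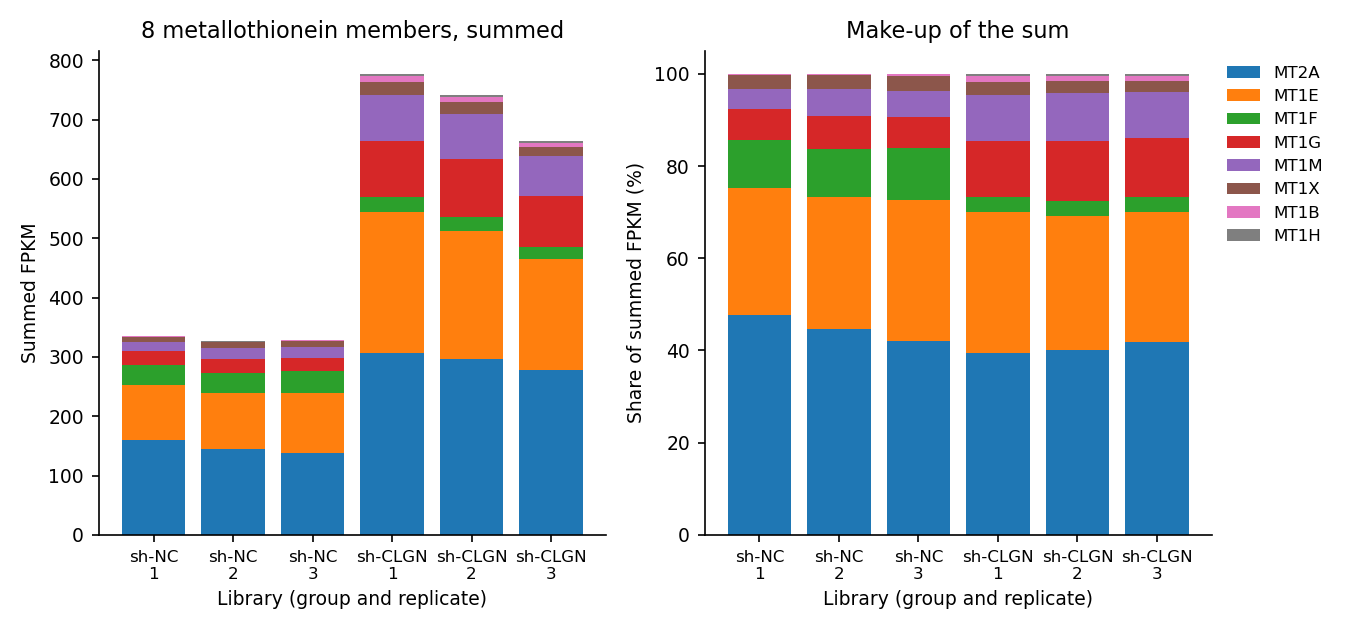
Stacked bars of the FPKM of the 8 metallothionein members in each library (left, summed FPKM; right, as a percentage of the sum). The sum was 326 to 335 FPKM in sh-NC and 664 to 777 FPKM in sh-CLGN, and the green MT1F band narrowed from at least 10.2% to at most 3.27% of it.

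The order of the levels per kilobase in sh-NC was MT2A, MT1E, MT1F, MT1G, MT1M, MT1X, MT1B and MT1H, in which neighbours did not overlap between libraries except MT1B and MT1H. In sh-CLGN the order was MT2A, MT1E, MT1G, MT1M, MT1F, MT1X, MT1B and MT1H, in which MT1F and MT1X overlapped. MT1F thus moved from the third to the fifth place. The gene lengths used by the authors joined all exons of a gene, and for MT1F and MT1X they were 1889 and 1773 bases, against 690 and 450 bases for the transcripts used above. With transcript lengths in place of gene lengths, MT1X came before MT1M in sh-NC and overlapped MT1G, and MT1F came after MT1X in sh-CLGN and overlapped it. The share of MT2A was then 38.9% to 44.4% in control cells and 39.2% to 41.7% in sh-CLGN cells, which overlapped. MT1F was in the third place in sh-NC on both length scales, at 5.26% of the pool in sh-CLGN against 16.3% in sh-NC by transcript length.

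Within sh-CLGN, replicate 3 had the lowest value of the group for 7 of the 8 metallothioneins, the exception being MT1B, and replicate 1 had the highest for 7 of the 8. In sh-NC no library was lowest for more than 4 of the 8. Leaving out sh-CLGN replicate 3 or any other library kept the direction of each of the 10 members.

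MTF1, the zinc sensor and activator of these genes, differed little. It was at 3.31, 3.59 and 3.50 FPKM in sh-NC and at 4.36, 4.17 and 4.46 FPKM in sh-CLGN. The groups did not overlap, and the mean went from 3.46 ± 0.144 to 4.33 ± 0.146 FPKM, a ratio of 1.25 and a log2 difference of 0.26. SLC30A1, which carries zinc out of the cytosol and is the best known MTF1 target outside the metallothioneins, was at 17.2, 19.7 and 20.1 FPKM in sh-NC and at 20.1, 20.6 and 20.9 FPKM in sh-CLGN. Its highest sh-NC library and its lowest sh-CLGN library were 20.07 and 20.10 FPKM, so the groups all but met. The mean went from 19.0 ± 1.56 to 20.5 ± 0.385 FPKM, a log2 difference of 0.11. It was -0.08 after a correction for GC content, 0.24 with TPM, 0.30 with read totals and 0.34 with quantile normalization. The exporter had a ratio of 1.08 where the summed metallothionein reads had 2.01 on the same library sizes.

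The promoters are shown because MTF1 acts through them. RefSeq promoter sequence (GRCh38.p14) was at hand for 6 of the 10 members, namely MT2A, MT1X, MT1B, MT1H, MTF1 and SLC30A1. RefSeq starts differed from those of the gene models above, except for MT1H. That of MT2A (chr16:56608584) lay inside its gene model, which began at 56608199, so its promoter window did too. The start of SLC30A1 (chr1:211579161) lay beyond its model, which ended at 211578742. The MRE core was searched on both strands as TGCACNC and TGCGCNC in the 250 bases before the RefSeq start. It occurred 7 times in MT2A (chr16:56608334-56608583), 4 times in MT1X (chr16:56682220-56682469), 3 times in MT1B (chr16:56651636-56651885) and 8 times in MT1H (chr16:56669564-56669813). All 4 windows are written as the plus strand of GRCh38, and matches on either strand were counted. These windows follow, 5′ to 3′, with each match of the core in capitals.
MT2A: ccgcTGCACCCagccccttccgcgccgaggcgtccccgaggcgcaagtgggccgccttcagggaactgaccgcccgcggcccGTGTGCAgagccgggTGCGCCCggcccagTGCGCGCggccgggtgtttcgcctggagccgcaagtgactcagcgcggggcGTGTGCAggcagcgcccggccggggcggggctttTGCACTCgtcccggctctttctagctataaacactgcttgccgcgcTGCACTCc
MT1X: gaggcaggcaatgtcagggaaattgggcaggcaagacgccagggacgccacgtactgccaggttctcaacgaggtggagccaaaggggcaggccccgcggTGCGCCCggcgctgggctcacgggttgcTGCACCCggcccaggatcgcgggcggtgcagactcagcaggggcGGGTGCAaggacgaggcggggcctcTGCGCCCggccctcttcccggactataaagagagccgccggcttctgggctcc
MT1B: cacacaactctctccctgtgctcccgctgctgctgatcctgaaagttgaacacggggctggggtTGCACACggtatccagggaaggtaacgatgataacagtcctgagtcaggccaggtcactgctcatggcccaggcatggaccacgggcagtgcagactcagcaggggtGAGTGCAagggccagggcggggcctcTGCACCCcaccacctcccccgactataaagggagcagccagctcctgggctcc
MT1H: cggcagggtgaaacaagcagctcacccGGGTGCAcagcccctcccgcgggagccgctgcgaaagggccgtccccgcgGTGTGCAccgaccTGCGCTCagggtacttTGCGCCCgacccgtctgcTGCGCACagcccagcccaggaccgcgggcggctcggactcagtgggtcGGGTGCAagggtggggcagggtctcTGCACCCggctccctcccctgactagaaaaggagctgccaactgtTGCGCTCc
A match that reads as TGCACNC or TGCGCNC on the coding strand began 53 or 54 bases before the start in 4 of these 4 promoters, and 0.171% of all 35116 promoters held such a match there. A match on the opposite strand lay 78 or 79 bases before the start in 3 of the 4, against 0.137% of all promoters. These distances are those of the matches in these same promoters, which belong to related genes. The shares of all promoters are therefore a description, and nothing is read from them. SLC30A1 had 1 match, on the opposite strand 49 bases before its start, and MTF1 had 0. Of all promoters, 24.8% held at least 1 match, 1.58% at least 3 and 0.37% at least 4. The ratios of these 4 genes were 1.81 for MT1X with 4 matches, 1.99 for MT2A with 7, 7.31 for MT1H with 8 and 14.7 for MT1B with 3, the last 2 being read ratios that rest on few control reads. A match is a run of letters, not a measured binding site.

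The letters complementary to the hairpin were searched in exons as well. TACCACA, which pairs with bases 2 to 8 of the strand that targets CLGN, occurred in SLC30A1 alone among the members, in its coding sequence (chr1:211575557-211575563), and in 21.8% of tested genes. ATACCAC, which pairs with bases 3 to 9, occurred in MT1F alone among the members, downstream of its stop codon (chr16:56659229-56659235, plus strand), and in 15.5% of tested genes. MT1F held no TACCACA. SLC30A1, which held it, had a log2 difference of 0.11, and -0.08 with GC correction. The site in MT1F is shown, with the heptamer in capitals, because this gene was the only member that was lower. It was thus picked with its direction known.
MT1F: attttttttttATACCACcttgacccatt
Whether the hairpin acted on MT1F or SLC30A1 was not tested.

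Of 13 further metallothionein genes and pseudogenes, 3 passed the expression filter. MT1A, a functional MT1 gene, was at 13.4, 13.0 and 11.1 FPKM in sh-NC and at 23.5, 24.6 and 15.3 FPKM in sh-CLGN, and MT1L, a pseudogene that is transcribed, was at 14.1, 12.8 and 15.7 FPKM against 29.1, 23.5 and 24.9 FPKM. Both rose without overlap, MT1A by 0.69 on the log2 scale (SE 0.16, limma adjusted p = 0.0064) and MT1L by 0.81 (SE 0.096, limma adjusted p = 0.00017). MT1DP had 4 to 15 reads per library, a log2 difference of 0.33, and did not pass. The other 10 were below the filter and had 3, 3 and 7 reads together in the sh-NC libraries and 12, 6 and 10 in the sh-CLGN libraries, which overlapped. MT3, the neuronal metallothionein, and MT4, that of squamous epithelia, were at 0 reads in all libraries. At 95% confidence, 0 reads allows an expected count of up to about 3 in a library.

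Zinc transporters other than SLC30A1 were read from the fit across all genes. In that fit 26.7% of all tested genes were higher and 39% lower, which is the background for this list and those after it. Of 9 further ZnT exporters 5 were tested, and 1 rose, 1 fell and 3 did not pass (median log2 difference -0.03). SLC30A7, which loads zinc into the secretory pathway, rose from 4.39 ± 0.535 to 7.23 ± 0.426 FPKM (log2 difference 0.61, SE 0.083, limma adjusted p = 0.00036). SLC30A10, which chiefly exports manganese, fell from 12.4 ± 0.888 to 6.41 ± 0.193 FPKM (log2 difference -0.85, SE 0.063, limma adjusted p = 1.89e-05). SLC30A5, SLC30A6 and SLC30A9 had log2 differences of -0.03, -0.10 and 0.07 and did not pass. SLC30A6 passed as lower with GC correction (-0.29), and SLC30A9 passed as higher with read totals (0.25), with quantile normalization (0.21) and without sh-NC replicate 3 (0.15).

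Of 14 ZIP importers 11 were tested, and 8 fell, 2 rose and 1 did not pass, with a median log2 difference of -0.29. SLC39A14, a hepatic importer of zinc and manganese, was the most abundant at 173 ± 12.1 FPKM in sh-NC and 138 ± 2.70 FPKM in sh-CLGN. Its log2 difference was -0.32 (SE 0.059, limma adjusted p = 0.0019), but it was 0.00 under quantile normalization. With read totals it was -0.12 and did not pass. SLC39A7, which releases zinc from the endoplasmic reticulum and Golgi, fell from 83.8 ± 4.58 to 59.1 ± 1.93 FPKM (log2 difference -0.50, SE 0.055, limma adjusted p = 0.00013). SLC39A5 fell from 29.5 ± 3.18 to 18.3 ± 0.859 FPKM (log2 difference -0.65, SE 0.081, limma adjusted p = 0.00023), and SLC39A4, the importer mutated in acrodermatitis enteropathica, fell from 1.31 ± 0.0346 to 0.385 ± 0.0616 FPKM (log2 difference -0.74, SE 0.093, limma adjusted p = 0.00024). The 2 that rose, SLC39A8 and SLC39A13, did so by 0.22 and 0.25 on the log2 scale and are named here because there were only 2. The number that fell depended on the scaling. It was 3 with read totals, 4 with quantile normalization and 5 with TPM, where 26.2%, 32.5% and 30.0% of all tested genes were lower. On the log2(FPKM + 1) scale none of the 16 tested transporters of both families passed the fold threshold. That scale understates the change of SLC39A4, which passed both thresholds with a pseudocount of 0.1 (-1.55), TPM (-1.18), quantile normalization (-1.05) and voom (-1.77). SLC39A4 was below 1 FPKM in every sh-CLGN library, so it entered the test only through sh-NC.

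**Figure D4:**
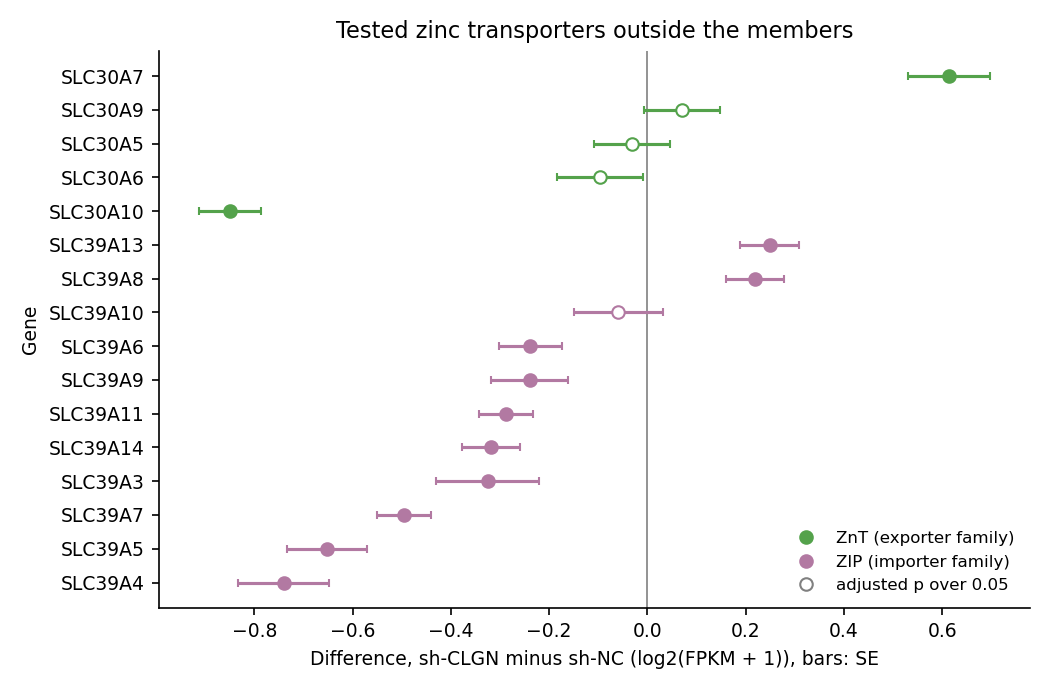
Difference between sh-CLGN and sh-NC in log2(FPKM + 1), with SE bars, for the 5 tested ZnT exporters (green) and 11 tested ZIP importers (purple) outside the members. Open points did not pass the limma adjusted p of 0.05, and 8 purple points lie to the left of 0 as filled points.

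Of 7 genes linked to MTF1 outside the metallothioneins, all tested, 2 rose, 2 fell and 3 did not pass, with a median log2 difference of -0.03. Among all tested genes 26.7% were higher and 39% lower, so nothing particular to this list is read from the counts. With read totals, quantile normalization or GC correction the counts were 3 higher and 2 lower. SLC40A1, the iron exporter ferroportin, rose by 0.74 (SE 0.051, limma adjusted p = 1.33e-05), and PGF, placental growth factor, by 0.62. NDRG1, a gene of hypoxia and metal stress, was lower with a log2 difference of -0.57, and SELENOH, a nuclear selenoprotein, with -0.53.

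Of 12 metal stress and heat shock genes, 4 rose, 5 fell and 3 did not pass. The 4 that rose were the heat shock chaperones HSPH1 (log2 difference 1.00), HSPA1A (0.92), HSPA8 (0.85) and HSPA1B (0.78). The heat shock chaperones DNAJB1 (0.005) and HSPB1 (0.29) of the same list did not pass. HSPA1A and HSPA1B are near-identical copies, so reads may be split between them. The 5 that fell were NQO1, a quinone reductase (-1.19), SLC7A11, a cystine importer (-1.05), GCLM, a subunit of the enzyme that begins glutathione synthesis (-0.82), TXNRD1, a thioredoxin reductase (-0.70), and HMOX1, a heme oxygenase (-0.12). SRXN1, the sulfiredoxin gene of the same list, had -0.09 and did not pass. HMOX1 did not pass under 10 of 16 alternatives, among them the omission of sh-NC replicate 1 or 2 or of any sh-CLGN library. HSPH1, NQO1 and SLC7A11 passed both thresholds, and HSPA1A, HMOX1, SRXN1, DNAJB1 and HSPB1 were named after their values were seen. The fold threshold was missed by HSPH1 with GC correction (0.88), by NQO1 with quantile normalization (-0.96) and by SLC7A11 with read totals (-0.88). The list as a whole had a median log2 difference of -0.04, and the counts were 7 higher and 4 lower with quantile normalization.

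Copper handling and glucocorticoid response were read in the same way, because copper binds to metallothioneins and glucocorticoids induce them. Of 9 tested copper genes out of 12, 1 rose, 4 fell and 4 did not pass, with a median of -0.18. CP, the copper oxidase ceruloplasmin, had a log2 difference of -1.34 (SE 0.060, limma adjusted p = 2.52e-06), SOD1, the copper and zinc superoxide dismutase, -0.82, SLC31A1, the copper importer, -0.68, ATP7B, the copper pump of hepatocytes, -0.30, and COX17, a copper chaperone of mitochondria, 0.28. Of 9 glucocorticoid-responsive genes all were tested, and 2 rose, 4 fell and 3 did not pass, with a median of -0.25. DUSP1, a phosphatase of MAP kinases, fell from 59.9 ± 3.90 to 16.4 ± 0.170 FPKM (log2 difference -1.81, SE 0.056, limma adjusted p = 7.36e-07). TSC22D3, also called GILZ, had -0.92 and FKBP5, a cochaperone of steroid receptors, -0.60, whereas ZBTB16 rose by 0.67 and SGK1 by 0.21. ZBTB16 was below 1 FPKM in every sh-NC library, so it entered the test only through sh-CLGN. ATP7B no longer passed with read totals or GC correction (-0.13 in both), nor did SGK1 with GC correction (0.12).

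Genes around the metallothionein cluster were compared to see how the same stretch of chromosome 16 differed. Of 64 genes outside the family within 1 Mb, 18 were tested, and 4 rose, 9 fell and 5 did not pass, with a median log2 difference of -0.21. Among all tested genes, 26.7% were higher and 39% lower. The nearest tested gene before the cluster, BBS2, 87.9 kb away, had a log2 difference of -0.49 (SE 0.071, limma adjusted p = 0.00049), and the nearest after it, NUP93, 45.9 kb away, -0.30 (SE 0.056, limma adjusted p = 0.0019), which did not pass with read totals (-0.13). CES1, a liver carboxylesterase gene, was the only neighbour past both thresholds, at 45.3 ± 1.68 FPKM in sh-NC and 12.3 ± 1.74 FPKM in sh-CLGN (log2 difference -1.80, SE 0.093, limma adjusted p = 4.08e-06).

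The genes whose profile over the 6 libraries was nearest to the median metallothionein profile were SERPINI1, LINC01268, SEPT2, SPTSSB and CAV1. Likeness was the Euclidean distance of log2(FPKM + 1) minus the sh-NC mean, and it was 0.084 for SERPINI1, 0.104 for LINC01268, 0.117 for SEPT2, 0.151 for SPTSSB and 0.152 for CAV1. Since 6 libraries in 2 groups set this distance, it chiefly says that these genes had a log2 difference of similar size on this scale, between 1.30 and 1.42. It is given as a description. LINC01268 (mean 0.287 FPKM in sh-NC, 2.17 in sh-CLGN) and SPTSSB (0.635 and 3.39) passed the expression filter only through sh-CLGN. The scale understates their changes, so their ratios were larger than that of SEPT2 (18.1 and 46.8 FPKM).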

How the data were processed

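RNA of 3 sh-NC and 3 sh-CLGN Hep-G2 samples was sequenced from NEBNext Ultra libraries. FPKM values of every gene were deposited by the authors in a single table, made with HISAT2 2.0.5 and featureCounts on GRCh38 according to the submitters' processing notes. The treatment of strand and of multi-mapped reads is not given in the sources used here. Table columns named KD were assigned to sh-CLGN by number and genotype label. All 58735 gene positions equalled those of GENCODE 29. FPKM times gene length gave whole reads for 100% of values within a tolerance of 0.01 of a read.

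Differences were fitted with limma 3.58.1 in R 4.3.3, with an intensity trend, on log2(FPKM + 1) over the 13074 genes that reached 1 FPKM in 3 or more libraries. P-values were two-sided and adjusted after Benjamini-Hochberg, and the threshold was an adjusted p of 0.05, with or without an absolute log2 difference of at least 1. Fold changes on this scale understate changes of low genes. The members and all gene lists were chosen with earlier results of these data known. Named genes were the 10 members, list genes past both thresholds with up to 4 further by adjusted p, the nearest profiles and the nearest neighbours, and other names are marked as such or complete a count. Median-ratio, TPM, read-total and quantile scaling, a pseudocount of 0.1, other filters, voom, a replicate block and leaving out each library were alternatives, and a GC correction (lowess span 0.3, 13068 genes) was added after seeing the data. Sequences came from GENCODE 29 transcripts and RefSeq promoters, read with Python 3.11.15 and biopython 1.88. Promoters were at hand for 6 members. Beside the blood cell markers counted in the report, 1 more is not reported here.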

Additional observations from a re-analysis of the deposited data

How the results depend on the processing

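The 8 metallothioneins and MTF1 kept their direction under all alternatives, including the omission of any library. SLC30A1 turned from 0.11 to -0.079 with GC correction, which was chosen after seeing the data. The median log2 difference of the 10 members was 1.07, and it was 1.20 with TPM, 1.26 with read totals, 1.33 with quantile normalization and 1.26 with GC correction. It ranged from 1.01 to 1.13 when a library was left out. The ratio of summed metallothionein reads was 2.30, with 2.01 per deposited library size and 2.21 to 2.41 without a library. Across all genes, 821 were called, 404 higher and 417 lower. A pseudocount of 0.1 gave 1606 (925 higher, 681 lower), and the count was 1426 with TPM (1002 higher, 424 lower), 1722 with voom on recovered reads (989 higher, 733 lower) and 784 to 902 without a library. The split was 605 higher and 235 lower with read totals and 463 higher and 259 lower with GC correction. The median of all genes moved from -0.08 to 0.08 with read totals and 0.03 with TPM. Several genes turned sign without passing the adjusted p. SLC30A6 went from -0.096 to 0.020 with TPM, 0.079 with read totals and 0.0344 with quantile normalization, and SLC30A9 from 0.071 to -0.081 with GC correction. In other settings they passed, SLC30A6 with GC correction (-0.29) and SLC30A9 with read totals (0.25), quantile normalization (0.21) and without sh-NC replicate 3 (0.15). SLC39A14 was at 0.0035 with quantile normalization, and LYZ, a blood cell marker, at 0.0062 with read totals and 0.10 with quantile normalization. The cause of these shifts was not tested.

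Between libraries of equal replicate number, deviations from the group mean had correlations of -0.02, -0.05 and -0.15 over all tested genes. These values showed no pairing, but they cannot exclude one that touches only some genes. With the replicate block, 821 genes were called, 818 of them shared with the fit without it, the zinc transporter count stayed at 12 of 16, and MT1DP passed the adjusted p, so 3 further metallothioneins did in place of 2. When a library was left out, the numbers past the adjusted p were 10 to 12 for zinc transporters, 12 to 13 for neighbours of the cluster, 4 for MTF1-linked genes, 8 to 10 for metal stress genes, 5 to 6 for copper genes and 6 for glucocorticoid genes. MT1B and MT1H had at most 5 reads in each control library, so their ratios are imprecise at this depth.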
